A study of Mus musculus with 12 samples.

Results

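The regions described here are places in the genome that a MyoD protein bound once its DNA-binding domain had been exchanged for that of NeuroD2, that neither native protein was listed at, and that at least 1 mutant of the exchanged protein still held. They were found by pooling 5 deposited lists of binding intervals, merging intervals that shared at least 1 base, and keeping merged regions with an interval of the chimera and of at least 1 mutant and with none of MyoD or NeuroD2. This gave 1011 of 60136 merged regions, or 1.68%, and they are called the kept new regions. Members were chosen by presence or absence in these lists, which is itself the measured outcome, so memberships are a description, and no test was made on them.

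MyoD and NeuroD2 are basic helix-loop-helix (bHLH) transcription factors, MyoD of skeletal muscle and NeuroD2 of neurons. The helix-loop-helix part pairs the factor with a partner protein and the basic part contacts DNA at E-boxes, short sites of the form CANNTG. The bases in the middle of an E-box and proteins bound next to it are known to differ between sites of the muscle and the neuronal factors.

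The cells were P19, a mouse embryonal carcinoma line that can form neurons or muscle in culture, and binding was mapped by chromatin immunoprecipitation and sequencing (ChIP-seq). The groups were P19 cells transduced with MyoD, with NeuroD2, with MD(ND2bHLH) (MyoD carrying the NeuroD2 bHLH domain, here the chimera), or with the mutants MD(ND2bHLH)WC and MD(ND2bHLH)WCS (here WC and WCS, letters that the labels do not spell out). All groups were infected in medium with polybrene at 8 µg/ml and later moved to a neuronal medium, at 48 h, and 2 untransduced libraries served as negative controls, with no list of theirs used here. Each transduced group had 2 libraries and 1 list. MyoD antibodies 6196 and 6975 were used on the cells with MyoD or a chimeric protein, 1 in each library, and NeuroD2 antibodies 1165 and 1240 on the cells with NeuroD2.

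The lists held 24935 MyoD, 31458 NeuroD2, 14375 chimera, 27045 WC and 22462 WCS intervals, and their read depth is unknown. With 1 list a group there is no spread between replicates, so no difference below was tested against one. The 95% intervals are exact Clopper-Pearson intervals over regions, which cover counting error only. The MyoD and chimera lists hold no interval on chromosome X and none under 100 bp, unlike the other lists, so the protein and the set of lists it belongs to cannot be told apart.

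A minority of the new regions of the chimera was kept. The chimera had 2983 merged regions without a parent. Of these, 1011 or 33.9% (32.2 to 35.6%) were in the list of a mutant and 1972 were in no other list. Over all 14275 regions of the chimera the share in the list of a mutant was 64.5%. WC held 900 of the 2983 regions, 30.2% (28.5 to 31.9%), against 61% of all chimera regions. WCS held 490, 16.4% (15.1 to 17.8%), against 52.5% of all chimera regions. With only the upper 50% of the 3 chimeric lists by value, and whole parent lists, 200 regions met the rule and the WCS share was 7.59%.

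The kept share of the new regions lay beside that of regions the chimera has in common with MyoD alone, and far from that of regions it has in common with NeuroD2. Of 4009 chimera regions with MyoD alone, 34.1% (32.6 to 35.6%) were in the list of a mutant. Of 3097 chimera regions with NeuroD2 alone the share was 93.5% (92.6 to 94.4%), and of 4186 regions with both parents it was 94.0% (93.2 to 94.7%). On each of 19 autosomes the share for new regions, 19 to 43.6%, was below that for regions with NeuroD2 alone, 88.9 to 97.2%. Against regions with MyoD alone the new regions were lower on 8 of the 19.

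The deposited value of an interval, whose unit no header names, was taken to be higher for stronger calls and was used only within its own list. All chimera regions were divided into 5 bins of equal size by their chimera value, and new regions were set beside the others inside each bin. In the lowest bin, with values from 5.04 to 6.44, a mutant held 28.8% of 983 new regions, 22.3% of regions with MyoD alone and 89.5% of regions with NeuroD2 alone. In bins 2 to 4 a mutant held 29.7, 36.8 and 42.6% of new regions and 26.5, 32.3 and 37.3% of regions with MyoD alone. In the highest bin, above 19.1, the shares were 52.2% of 161 new regions, 53.4% with MyoD alone and 99.5% with NeuroD2 alone. New regions stood above regions with MyoD alone in bins 1 to 4 and below them in bin 5. The kept share of new regions thus increased with the chimera value without reaching the NeuroD2 share of any bin. Weighted to the bins of the new regions, the kept share was 33.9% for new regions, 29.3% with MyoD alone and 92.6% with NeuroD2 alone. Bins of the chimera value do not separate the protein from the set of lists it belongs to.

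**Figure D1:**
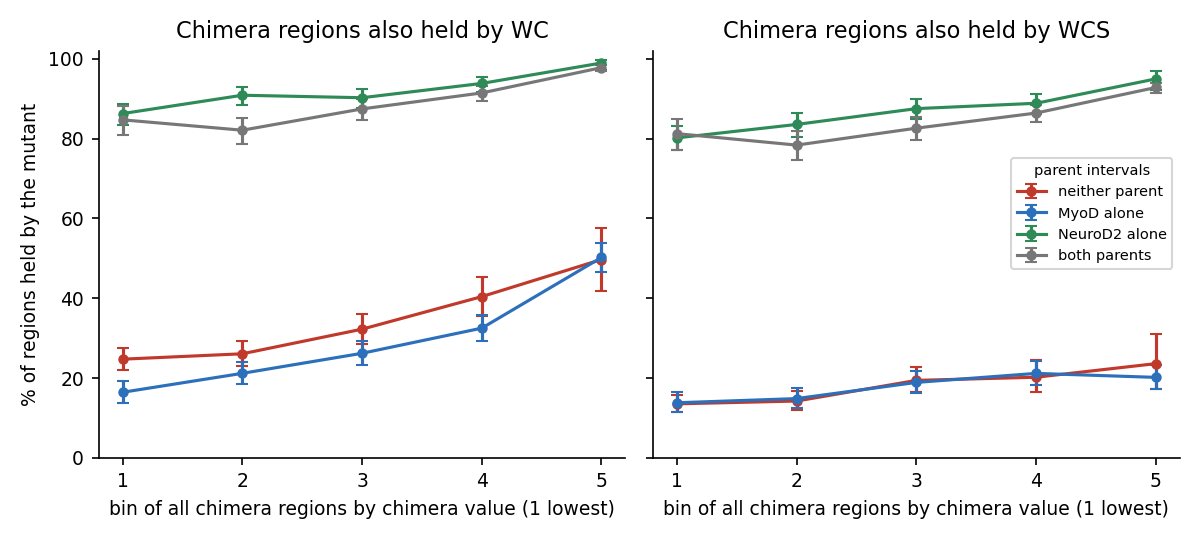
Share of chimera regions (%, y axis) also held by WC (left) or WCS (right), in 5 bins of all chimera regions ordered by chimera value (x axis, 1 lowest). Lines are regions with no parent, MyoD alone, NeuroD2 alone or both parents, and bars are exact 95% intervals over regions. For WC the new regions run from 24.7% to 49.7% and for WCS from 13.5% to 23.6%, below the lines of regions with NeuroD2.

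WC held far more of these regions than WCS did. The chimera and WC alone held 521 of the 1011 kept new regions, or 51.5%. All 3 chimeric proteins held 379, or 37.5% (34.5 to 40.6%), and the chimera and WCS alone held 111, or 11.0%. Both mutants thus held 12.7% of the 2983 new regions, against 49% of all chimera regions. The WC count was 1.84 times the WCS count among new regions, 1.63 times among regions with MyoD alone and 1.06 times among regions with NeuroD2 alone. The WC list is the longer one. When WC was cut to its 22462 intervals of highest value, the length of the WCS list, the ratios were 1.54, 1.35 and 1.02.

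Many of the new regions in the WC list were missing from the WCS list, and a smaller share was missing where the WC value was high. WCS held 379 of the 900 kept new regions in the WC list, 42.1% (38.9 to 45.4%). For regions with MyoD alone the share was 43.6%, and for regions with NeuroD2 alone 91.9% (90.9 to 92.9%). Regions of the chimera and WC were divided into 5 bins by WC value. In the lowest bin, up to 8.76, WCS held 32.7% of 364 new regions and 68.7% of regions with NeuroD2 alone. In the highest bin, above 45.7, it held 32 of 43 new regions, 74.4% (58.8 to 86.5%), and 99.7% of regions with NeuroD2 alone. Within each bin WCS thus lacked a larger part of the new regions than of regions with NeuroD2 alone. NeuroD2, WC and WCS are in the same set of lists, and the part of that set in this difference was not tested. Beside regions with MyoD alone the order changed with the bin. WCS held 40.7% of those in the lowest bin and 56.8% in the highest. Weighted to the WC bins of the new regions, the share with NeuroD2 alone was 82.3% and with MyoD alone 43.9%. In the other direction WC held 77.3% of the 490 new regions in the WCS list.

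**Figure D2:**
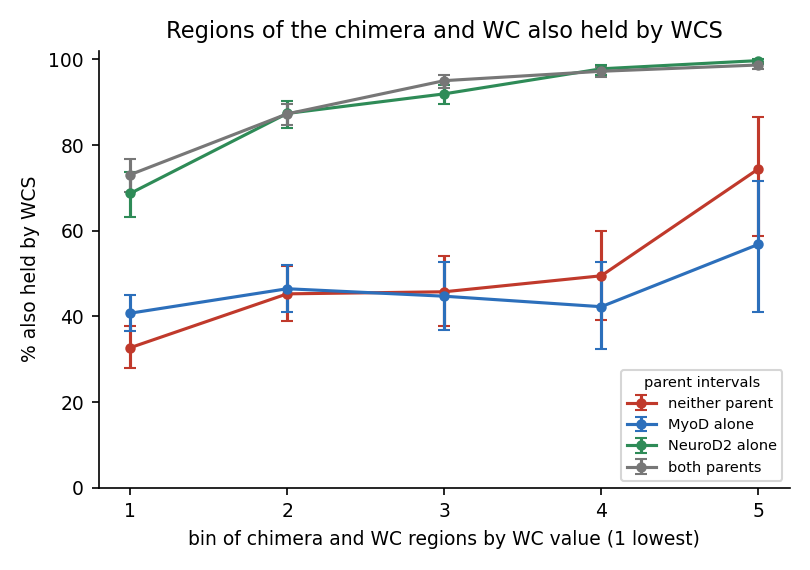
Share of regions of the chimera and WC that WCS also held (%, y axis), in 5 bins of these regions ordered by WC value (x axis, 1 lowest), for regions with no parent, MyoD alone, NeuroD2 alone or both parents, with exact 95% intervals over regions. New regions go from 32.7% to 74.4% and regions with NeuroD2 alone from 68.7% to 99.7%.

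Kept new regions mostly ranked low in the chimera list, with 639 of the 1011, or 63.2%, below percentile 50 of that list. Their chimera values ran from 5.13 to 90.8 with a median of 8.04 and quartiles of 6.33 and 11.4. The median percentile of the value within the chimera list was 39.2. For regions of the chimera alone it was 29.2, for regions with NeuroD2 alone 45.6, with MyoD alone 49.1 and with both parents 70.8. Of the kept new regions 35, or 3.46%, were in the top 10% of the chimera list, against 0.913% of regions of the chimera alone and 21.7% of regions with both parents. The kept new regions thus stood between the regions of the chimera alone and those of a parent. Unlike the kept new regions, the classes with a parent were not limited to regions held by a mutant. Over all 2983 new regions, kept or not, the median percentile was 32.1. Chimera values under 6, near the lowest of the list at 5.04, were found in 19.1% of the kept new regions, 26.3% of regions of the chimera alone and 16.0% of regions with NeuroD2 alone. How many are missing from a parent list by a narrow margin was not tested.

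Kept new regions held by both mutants stood higher in the mutant lists than those held by 1. Regions in all 3 lists had a median WC percentile of 56.6, against 44.1 for regions of the chimera and WC alone. Their median WCS percentile was 41.3, against 21.6 for regions of the chimera and WCS alone. No region of the chimera and WCS alone reached the top 10% of the chimera or the WCS list. Of the 379 regions in all 3 lists 16 reached that of the chimera list, 7 that of the WCS list and 43 that of the WC list. Regions with NeuroD2 alone that were in all 3 chimeric lists stood higher, with median percentiles of 82.6 in WC and 78.3 in WCS, and those with both parents at 81.1 and 77.9. Regions with MyoD alone in all 3 chimeric lists were at 46.7 in WC, below the kept new regions, and at the same 41.3 in WCS. Regions of both mutants without the chimera or a parent were at 34.4 and 34.8.

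The regions were ranked differently by the 3 lists. Across the kept new regions the Spearman correlation of percentiles was 0.15 between chimera and WC (n = 900 regions), 0.059 between chimera and WCS (n = 490) and 0.36 between WC and WCS (n = 379). For regions with MyoD alone the same values were 0.30, 0.081 and 0.29, and for regions with NeuroD2 alone 0.34, 0.28 and 0.78. The lists share both antibodies, and regions are not independent samples. The percentile was higher in WC than in the chimera for 544 of 900 regions, or 60.4%. It was higher in WCS than in the chimera for 238 of 490, or 48.6%, and higher in WCS than in WC for 141 of 379, or 37.2%. The lists differ in length and their depth is unknown, so a higher percentile in 1 list does not mean stronger binding. In 106 regions the WC value was above percentile 75 of its list and the chimera value below percentile 50, and in 37 regions the converse held.

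**Figure D3:**
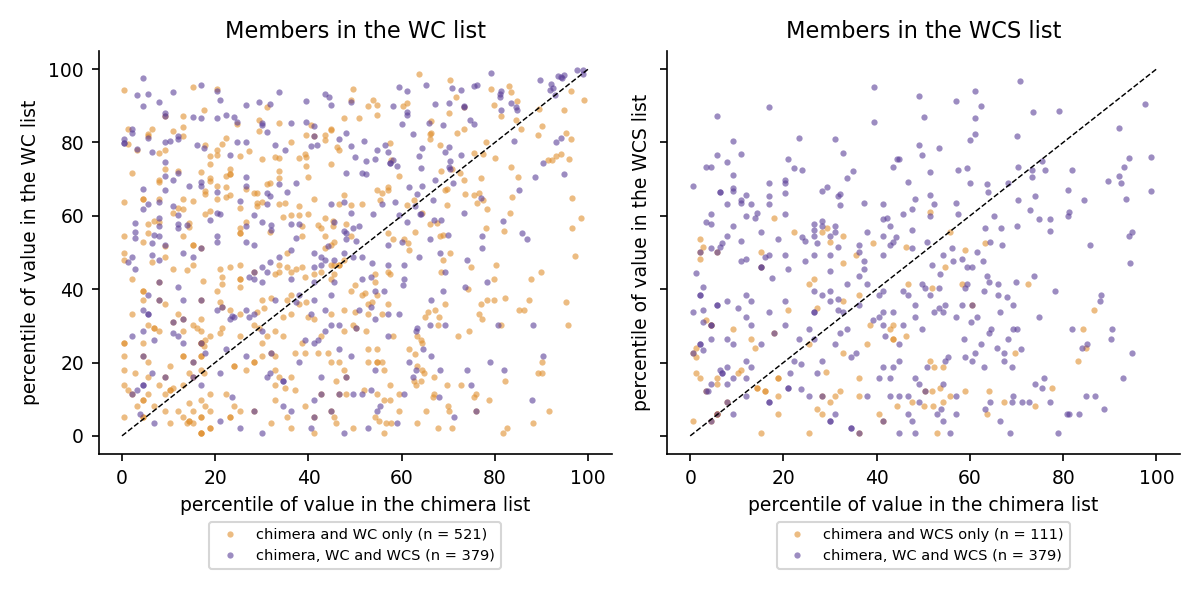
Percentile of the value in the chimera list (x axis) and in the WC (left) or WCS (right) list (y axis), 1 point per kept new region, coloured by the lists that hold it, with the line of equal percentiles dashed. Points spread over the whole plane for WC, with 51 regions above percentile 75 in both lists, while only 32 of the 490 WCS points lie above percentile 75 of the WCS list.

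The rule joins intervals that share bases, so overlap was largely set in advance, and the centres lay close together. The distance between centres of the chimera and WC intervals had a median of 37.5 bp and quartiles of 17 and 64.5 bp, and it was at most 100 bp in 797 of 900 regions. Between chimera and WCS the median was 41.5 bp and 410 of 490 were within 100 bp. For regions with NeuroD2 alone the medians were 42.5 and 42 bp, and for regions with MyoD alone 44 and 51 bp. The overlap covered at least 50% of the shorter interval in 99.6% of the WC and 99.0% of the WCS pairs. In 1 region with WC and 2 with WCS the interval of highest value did not itself overlap that of the chimera. Chimera intervals were the wider ones, with a median of 375 bp against 337 bp in WC. Of 490 WCS intervals, 402 were narrower than their chimera interval. Whole lists had the same order, with median widths of 431 (chimera), 349 (WC) and 329 bp (WCS), so it is not particular to these regions. With MyoD alone the chimera median was 436.5 bp and that of WC 332 bp. With NeuroD2 alone WC intervals were the wider ones, at 434 bp against 422 bp. The merged kept new regions were 265 to 1682 bp long with a median of 420 bp, and 8 held more than 1 interval of a list.

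The 8 kept new regions of highest chimera value among those in all 3 lists are given with the chimera, WC and WCS values in that order (mm9, 1-based). The first, chromosome 11 from 64357635 to 64358160, had values of 89.5, 164 and 14.6, at percentiles of 98.9, 99.7 and 66.7. Its nearest MyoD interval was 103 kb and its nearest NeuroD2 interval 44.0 kb away. Chromosome 2 from 84972782 to 84973340 had values of 88.7, 110 and 19.4, and a NeuroD2 interval 7.69 kb away. Both thus stood near the top of the chimera and WC lists and only in the middle or upper part of the WCS list.

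The third region, chromosome 1 from 35867970 to 35868599, had 63.8, 185 and 37.3, at percentiles of 97.5, 99.8 and 90.5, and a MyoD interval 956 bp away. It had the highest WC value of all kept new regions. Chromosome 10 from 75724465 to 75725107 had 43.9, 97.8 and 11.2, with a MyoD interval 1.57 kb away. Chromosome 17 from 34477583 to 34478136 had 43.2, 18.0 and 6.57. In this last region both mutants stood below the chimera by percentile, at 71.3 in WC and 22.5 in WCS against 94.7 in the chimera.

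Chromosome 3 from 153713887 to 153714411 had 42.1, 83.5 and 9.50. Chromosome 11 from 44902811 to 44903491 had 41.5, 89.0 and 19.4. Chromosome 6 from 30499019 to 30499488 had 41.5, 25.7 and 11.0. In all 8 regions the WCS percentile was the lowest of the 3, and in 6 of the 8 the WC percentile was above 97. Naming regions by chimera value favours a chimera percentile above that of WCS. Over all 490 kept new regions in the WCS list, 238 or 48.6% stood higher in WCS than in the chimera.

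The next 4 regions had the highest chimera values among those that WC held and WCS did not, a choice that favours a high rank in the chimera list. Over all 521 regions of the chimera and WC alone the median percentile was 38.6 in the chimera list and 44.1 in the WC list. Chromosome 9 from 61594022 to 61594747 had a chimera value of 90.8, the highest of all kept new regions, and 44.5 in WC. Chromosome 5 from 97398002 to 97398410 had 79.4 in the chimera and 13.1 in WC. The percentiles were 99.0 and 91.6 in the first and 98.5 and 59.5 in the second.

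Chromosome 1 from 135065559 to 135065981 had 60.0 in the chimera and 10.4 in WC. Chromosome 12 from 105219793 to 105220231 had 53.7 and 12.2. These 2 regions stood at percentiles of 97.1 and 96.5 in the chimera list and of 49.1 and 56.6 in the WC list.

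Regions of the chimera and WCS alone had lower values in both lists. Chromosome 16 from 42910860 to 42911204 led them with 25.7 in the chimera and 7.66 in WCS. Chromosome 7 from 53178318 to 53178706 had 23.5 and 6.72. Chromosome 2 from 26085810 to 26086195 had 22.6 and 7.10. As in the others, the WCS value was in the lower part of its list. Chromosome 4 from 41261813 to 41262292 had 21.6 and 6.39. All 4 lay between percentiles 83.1 and 86.7 in the chimera list and between 20.4 and 34.3 in the WCS list.

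Regions named for their WC value followed, and their chimera ranks differed. The next by WC value was chromosome 11 from 76994253 to 76994798, with 18.5 in the chimera, 112 in WC and 33.1 in WCS. Chromosome 2 from 35156312 to 35156892 had 12.2 in the chimera and 109 in WC, and WCS did not hold it. Chromosome 3 from 103482870 to 103483383 had 39.5, 95.3 and 13.9. Their percentiles in the chimera list were 79.1, 63.6 and 93.6, against 98.8, 98.8 and 98.2 in the WC list.

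The highest WCS value was 67.6, on chromosome 19 from 10015293 to 10015900, with 14.4 in the chimera and 58.9 in WC. Chromosome 10 from 90172211 to 90172660 had 54.5 in WCS, 30.8 in WC and 8.17 in the chimera, so it stood at percentile 95.1 in WCS and 39.4 in the chimera. Chromosome 5 from 15165426 to 15166083 had 49.5 in WCS, 54.0 in WC and 11.6 in the chimera, with a NeuroD2 interval 408 bp away. Their WCS percentiles of 96.8, 95.1 and 94.1 were the highest among the 22 named regions, an order favoured by naming them for their WCS values.

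**Figure D4:**
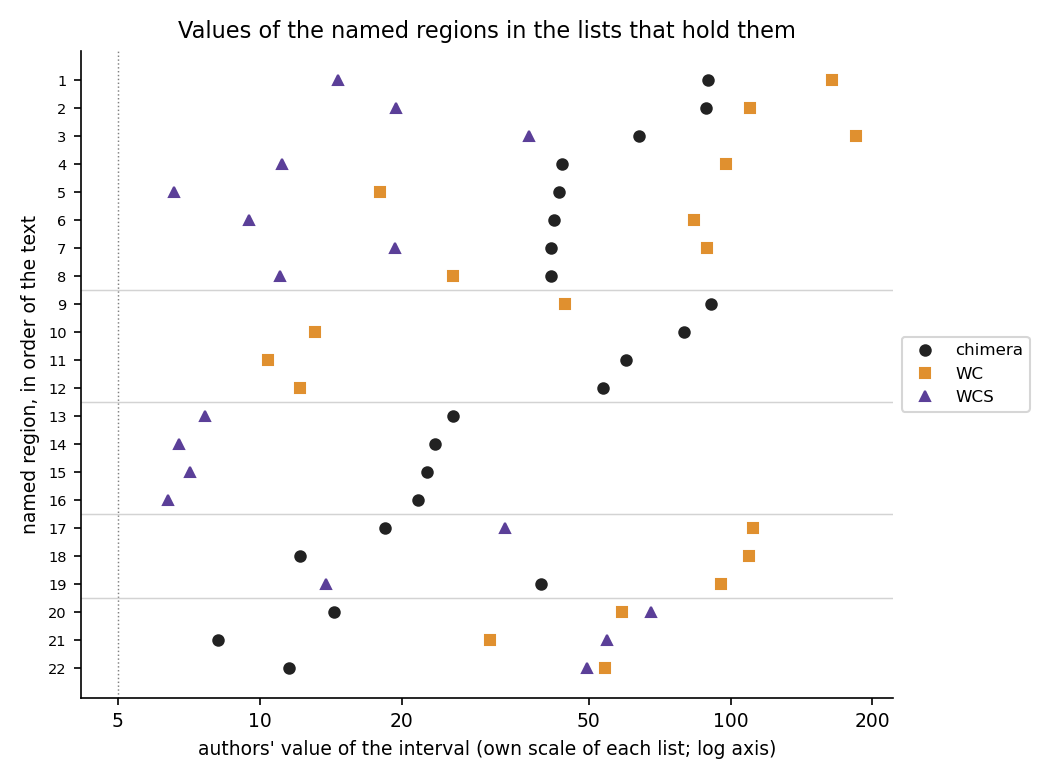
Authors' value (x axis, log scale, with the lower limit of the lists near 5 dotted) of the 22 named regions in the chimera, WC and WCS lists, numbered on the y axis in the order of the text: 1 to 8 in all 3 lists, 9 to 12 in the chimera and WC, 13 to 16 in the chimera and WCS, 17 to 19 by WC value and 20 to 22 by WCS value. Values of different lists share no scale, so points are read against other points of their own list. WCS values of regions 1 to 8 lie between 6.57 and 37.3. Those of regions 20 to 22 are higher, an order favoured by naming these regions for their WCS values.

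Few kept new regions bordered on a parent interval. The distance to the nearest MyoD interval had a median of 19.4 kb and to the nearest NeuroD2 interval 15.2 kb, against 18.6 and 17.7 kb for regions of the chimera alone. Within 1 kb of either parent lay 123 kept new regions, or 12.2% (10.2 to 14.3%), against 13.5% of regions of the chimera alone. Within 10 kb of NeuroD2 lay 40.5% of the kept new regions and 35.9% of regions of the chimera alone, and for MyoD the shares were 33.5% and 35.4%. The nearer parent interval was over 100 kb away in 43 of the 1011, or 4.25%, against 4.01% of regions of the chimera alone. The share within 1 kb depends on the merging, at 4.95% where intervals up to 500 bases apart were joined and 39.6% where sharing was read from centres within 100 bases, a rule that lets overlapping intervals count as not shared.

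**Figure D5:**
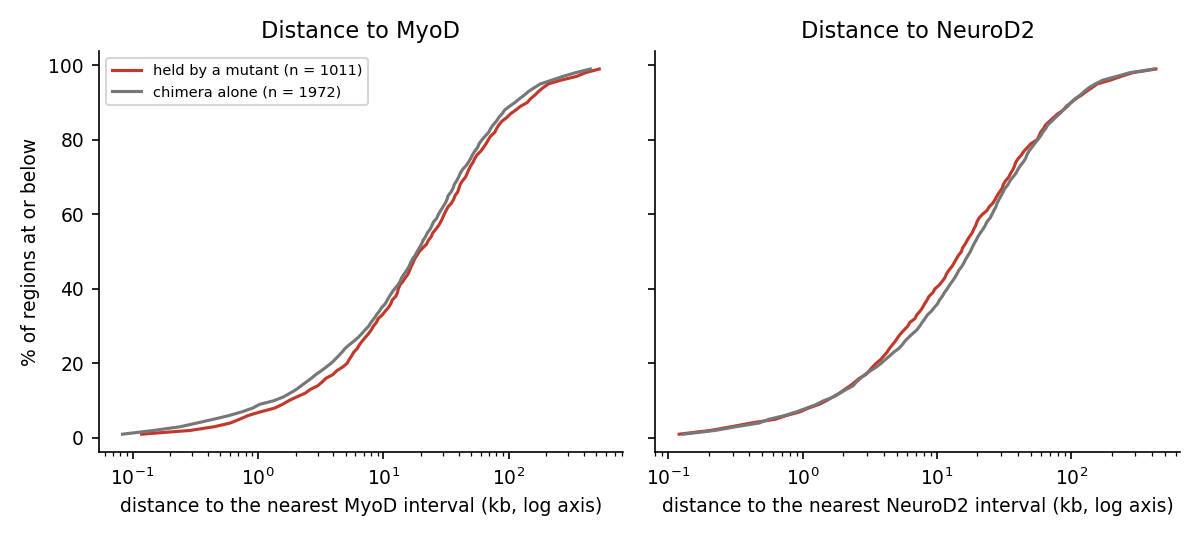
Share of regions (%, y axis) with a MyoD (left) or NeuroD2 (right) interval at or nearer than a distance (kb, x axis, log scale), for the 1011 kept new regions and the 1972 regions of the chimera alone. The curves run close together, with medians of 19.4 and 18.6 kb for MyoD and 15.2 and 17.7 kb for NeuroD2.

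Regions on either side of the rule had ordinary values. Just inside it was chromosome 10 from 31312522 to 31313053, 2 bp from a MyoD interval, with 14.0 in the chimera and 6.57 in WCS. Chromosome 2 from 19475875 to 19476273 was 12 bp from MyoD, with 8.57 in the chimera and 26.5 in WC. Chromosome 3 from 36450804 to 36451132 was 24 bp from NeuroD2, with 8.30 in the chimera, 7.02 in WC and 7.65 in WCS. Within 100 bp of a parent interval lay 16 kept new regions, or 1.58%, against 1.98% of regions of the chimera alone.

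Just outside it was chromosome 9 from 31087527 to 31088219, where a MyoD interval shared 2 bp, with 7.56 in the chimera and 5.58 in WC. On chromosome 8 from 20007097 to 20007453 a NeuroD2 interval shared 94 bp, with 10.04 in the chimera, 13.4 in WC and 9.16 in WCS. On chromosome 19 from 47502228 to 47503233 a MyoD interval shared 96 bp, with 6.85 in the chimera, 8.27 in WC and 11.2 in WCS. Of 8197 chimera regions held by a mutant and a parent, 1 had a parent overlap of up to 50 bp.

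The kept new regions were scattered over the 19 autosomes. Chromosome 11 had the most, 103 or 10.2% of them, and holds 8.27% of all chimera regions. Chromosomes 13 and 19 had the fewest, 19 each. Of the chimera regions without a parent, 43.6% on chromosome 11 and 19% on chromosome 13 were kept. The nearest other kept new region was a median of 486 kb away, and 898 of the 952 windows of 100 kb that held any held 1.

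Only 3 windows held 3 or more. The window on chromosome 10 from 77200001 to 77300000 held 5, of which 4 were in all 3 lists, with chimera values of 6.37 to 14.1, among 11 MyoD, 4 NeuroD2 and 15 chimera intervals. Neighbouring windows on chromosome 5, from 15000001 and from 15100001, held 3 each, all 6 in all 3 lists. They are crowded in 3 of the lists, with 32 and 59 NeuroD2, 28 and 54 WC and 31 and 58 WCS intervals, and hold 0 MyoD and 7 and 8 chimera intervals. How uniquely reads map there was not tested.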

How the data were processed

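The files are 5 interval lists, 1 for each transduced group and shared by its libraries. The submitters' processing notes name build mm9, BWA 0.7.5 and CASAVA 1.8.2; which peak caller and filters were used, and whether libraries were pooled, was not given in the sources used here. The score deposited with each interval has no named unit, is above 5 throughout and is infinite for some intervals of other lists, so it was ranked only within its list; ties, with 1187 distinct values in the chimera list, took the mean rank. A region with several intervals of a list took the highest value.

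Intervals sharing at least 1 base were chained into regions with Python 3.11.15, numpy 2.4.6, pandas 2.3.3 and scipy 1.17.1. Merging was tested on simulated data, where 2199 of 2199 set members were found, and on the real lists bedtools gave the same 60136 regions. Bins share tied values at their borders. Figures were drawn with matplotlib 3.10.9.

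The rule for named regions took, by value, 8 in all 3 chimeric lists, 4 with WC alone, 4 with WCS alone, then 3 by WC and 3 by WCS value, 3 on either side of the rule, 3 windows and the chromosomes with most and fewest. The members and lists were chosen with earlier results of these data known. E-boxes, gene lists and sequences were not analysed here, because the reference used here belongs to GRCm38.p6.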

Additional observations from a re-analysis of the deposited data

How the results depend on the processing

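No paired analysis was possible because each group has 1 list, and for the same reason no library could be left out. Of 10 alternatives, 1 of them (the shortened WC list) and 4 of the shares chosen after seeing the data, all 10 kept the share of new regions held by a mutant below that for regions with NeuroD2 alone, the WC share above the WCS share, and the median chimera percentile of kept new regions above that of regions of the chimera alone. The new regions were below regions with MyoD alone in 5 of the 10, so that order, taken over all chimera values together, is not settled. With centres within 100 bases, 1329 regions met the rule, 27.8% of new regions were kept (WC 23.6%, WCS 14.7%), 32.0% with MyoD alone and 90.4% with NeuroD2 alone, the median percentiles were 44.4 (kept) and 38.6 (chimera alone), and 39.6% lay within 1 kb of a parent. With the top 50% of every list, 580 regions met the rule, with shares of 31.4% (MyoD alone), 94.5% (NeuroD2 alone) and 10.2% (within 1 kb) and a percentile of 30.5 for the chimera alone. Here and in the next setting percentiles were ranked anew within the shortened chimera list, so they are not on the scale of the whole list. With the top 50% of the chimeric lists only, 200 met it, 23.0% of new regions were kept (WC 21.5%, WCS 7.59%, both mutants in 26.5% of those kept), against 21.0% with MyoD alone and 87.5% with NeuroD2 alone, and the percentile for the chimera alone was 28.1. With every list as short as the shortest, which shortens the parent lists and leaves the chimera list whole, 1489 met the rule, 28.5% were kept (WC 23.2%, both mutants in 43.0% of those kept), 30.3% with MyoD alone, the percentiles were 43.5 and 30.6, and 9.47% lay within 1 kb. Joining within 500 bases gave 4.95% within 1 kb. The shortened WC list gave 30.4% kept, 25.3% for WC, 30.7% with MyoD alone and 92.1% with NeuroD2 alone. The number of regions thus moved both ways, from 200 to 1489, and the cause was not tested. Pairwise overlap, the common filter of autosomes and widths, and removal of crowded windows left all of these shares and percentiles within their counting intervals. The number of regions has no such interval, and under these settings it ran from 953 to 1032, against 1011. The planned share of E-boxes was not run, since it needs an mm9 genome. Read depth is unknown, so absence from a list is not absence of binding.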

Other observations

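Where neither the chimera nor a parent was listed, WC held 5946 regions and WCS 3980, with 2151 in common. These are 36.2% of the WC and 54.0% of the WCS regions. Among the kept new regions, chosen for the chimera being listed, the same shares were 42.1% and 77.3%. The 900 regions that the chimera and WC have in common without a parent are 13.1% of the 6846 such WC regions, and the 490 in common with WCS are 11.0% of the 4470 such WCS regions.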
